A study of Mus musculus with 18 samples.

Results

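The nuclear-encoded subunits of respiratory complexes II to IV, cytochrome c and ATP synthase were followed in ileum cells of mice on a Western diet (WD) and of mice labelled as lacking Pgc1α in the intestine. These genes were chosen by symbol. For complex IV these were the *Cox* names with a number from 4 to 8 followed directly by a, b or c. This left out *Cox4i1* and *Cox4i2*. Complex II gave the 4 *Sdh* subunits, complex III every *Uqcr* gene and *Cyc1*, cytochrome c *Cycs*, and ATP synthase every *Atp5* gene. The array carried 47 such names on 75 probes, and 45 of them were measured, among 21542 gene names measured in all. Measured means that at least 1 probe was well above background, by the scanner software's flag, on 5 or more of the 6 arrays of any group. *Cox8b*, an isoform of heart and skeletal muscle, passed the flag on at most 1 array of a group, and *Cox8c*, a testis isoform, on 0 arrays. The 45 genes are 4 of complex II, 9 of complex III, cytochrome c itself, 13 of complex IV and 18 with an ATP synthase name. The last include a pseudogene, *Atp5c1-ps*, and *Atp5s* and *Atp5sl*, whose products are not subunits of the enzyme.

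There were 3 groups of 6 mice, each mouse on its own array. Pgc1α fl/fl mice (iPGC1afl/fl in the labels) carry the floxed gene without Cre and received chow or WD. iPgc1α-/- mice (iPGC1a-/- in the labels) carry the same floxed gene with Cre under the Villin promoter, which is active in the intestinal epithelium and deletes exons 3 to 5 there, and received WD. All groups therefore share the floxed allele. WD, which the labels call HFD, drew 42% of its kcal from fat, contained 0.2% cholesterol and lasted 8 weeks, starting at 8 weeks of age, and all mice were killed at ZT 3, that is 3 hours after lights on. The ileum was shaken in chelating buffer to release its cells, so each array reports the bulk RNA of a mixed suspension of cells. Chow-fed iPgc1α-/- mice were not analysed here. Per array, 56.3% to 62.3% of spots were well above background, and each of the 3 slides held 2 arrays of every group.

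On the brighter of its 2 measured probes, the targeted gene was not lower under the genotype label. *Ppargc1a*, which encodes Pgc1α, had a log2 signal 0.30 higher in the arrays labelled iPgc1α-/- than in the WD-fed controls (SE 0.16, n = 6 and 6, limma adjusted p = 0.572). Whether that probe lies in the deleted exons was not determined, since no annotation of the build of the array was used. The value of the other probe is not given here. Every direction by genotype below refers to the labels.

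The respiratory chain passes electrons from food to oxygen across the inner mitochondrial membrane. Complex II takes them from succinate, complex III hands them to cytochrome c, and complex IV gives them to oxygen, while complexes III and IV pump protons that drive ATP synthase. Pgc1α is a coactivator that acts through estrogen-related receptors (ERR), nuclear respiratory factors and PPARs, and is known for raising the transcription of genes of this chain in oxidative tissues. Several complex IV subunits exist as a widely expressed isoform and another that is restricted to muscle, testis or a few other tissues. Complex II is encoded wholly in the nucleus, while complexes III and IV and ATP synthase also hold subunits encoded by mitochondrial DNA.

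Since 2 isoform pairs of complex IV carry the differences described below, the probes of these isoforms are shown first. *Cox7a1* is the isoform of heart and skeletal muscle and *Cox7a2* the one of most other tissues, whereas *Cox6b1* is widely expressed and *Cox6b2* is known as a testis isoform. The sequences are those of the array, read 5′ to 3′ in transcript sense, and capitals mark, within the printed bases, 1 of the longest runs that also occur anywhere in the full probe of the partner. The capitals of 2 partners need not be the same run.
Cox7a1, 60 bases: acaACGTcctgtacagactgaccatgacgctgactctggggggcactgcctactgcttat
Cox7a2, first 30 bases: ttcccaagaagCAGAactaatgtcgtcatc
Cox6b1, 60 bases: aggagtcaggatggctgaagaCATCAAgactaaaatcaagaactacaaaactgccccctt
Cox6b2, first 30 bases: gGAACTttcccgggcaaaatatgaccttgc
On mouse genome build mm9, as the array files give it, these probes lie at chr7:30970337-30970948 (plus strand), chr9:79603048-79603072 (minus), chr7:31409575-31411071 (minus) and chr7:4703488-4703547 (minus). The spans of *Cox7a1* and *Cox6b1* are longer than the 60 bases of their probes and that of *Cox7a2* is shorter, so these spans do not give the place of every base. Over the full 60 bases the longest shared run was 4 bases between *Cox7a1* and *Cox7a2* and 6 between *Cox6b1* and *Cox6b2*. Each probe was compared only with the probe of its partner, which may lie on another part of the transcript. Whether a probe also matches the transcript of its partner was not tested.

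The first comparison asked how WD changed these genes in mice with intact Pgc1α. Of the 45 genes, 2 rose on WD, *Cox7a1* and *Atp5o*, and 0 fell, by limma with Benjamini-Hochberg adjustment over all probes and a threshold of 0.05 on the adjusted p. Among all 21542 genes, 10.4% rose and 14.2% fell. Only *Cox7a1* also passed a fold change of 1.5, which 8.43% of all genes did in either direction. At an unadjusted p under 0.05, 7 of the 45 genes were higher and 0 lower, beside 3523 and 4525 of all 21542 genes. The median log2 difference of the 45 was 0.05, beside 0.00 over all genes. Above 0 lay 35 of the 45, beside 10874 of all 21542 genes. The 95% confidence interval of the difference lay within a 1.5-fold change for 44 of the 45, all but *Cox7a1*. This was so for 16321 of all 21542 genes. Medians by complex were 0.04 for complex II, 0.04 for complex III, 0.06 for complex IV and 0.04 for ATP synthase.

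*Cox7a1*, the muscle-type subunit of cytochrome c oxidase, had the largest difference of the 45. Its log2 signal ran from 13.64 to 14.35 in chow-fed Pgc1α fl/fl mice (median 14.18) and from 14.67 to 15.40 on WD (median 14.76), so the lowest array on WD lay above the highest on chow. The fitted difference was 0.78 (SE 0.12, 95% confidence interval 0.52 to 1.04), a 1.72-fold rise with an adjusted p of 0.000121 by limma. Arrays on the same slide differed by 0.56, 0.70 and 1.09. The highest array on WD, replicate 6, stood above the next at 15.00, and without it the difference was 0.68 (adjusted p = 0.00017). Its widely expressed partner *Cox7a2* differed by −0.01 (adjusted p = 0.939), with arrays from 14.83 to 15.01 on chow and from 14.83 to 15.19 on WD. *Cox7a2l*, which helps to assemble supercomplexes, differed by 0.16 (adjusted p = 0.143).

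**Figure D1:**
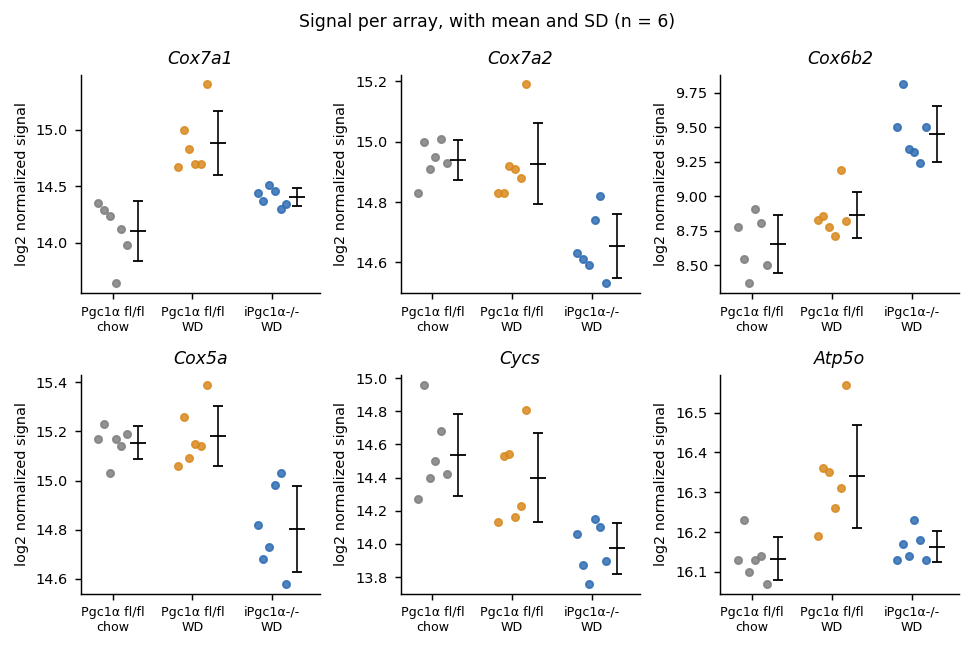
Normalized log2 signal (vertical axis) of 6 genes in every array of the 3 groups, with the mean and the SD of each group (n = 6). *Cox7a1* arrays on WD sit between 14.67 and 15.40, above all arrays on chow (13.64 to 14.35), and *Cox6b2* arrays labelled iPgc1α-/- sit between 9.24 and 9.81, above all arrays of the other groups.

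Since *Cox7a1* is known from muscle, markers of stroma and muscle were set beside it. None of the 5 measured markers passed the test for diet. Their summed signal, on the log2 scale, ran from 12.25 to 12.79 on chow and from 12.37 to 12.90 on WD. Linear signals were summed, so the sum mostly repeats the brightest marker, *Acta2*. That marker alone ran from 12.08 to 12.68 on chow and from 12.10 to 12.81 on WD. *Des*, the intermediate filament of muscle, differed by 0.16 (adjusted p = 0.382) and *Acta2*, smooth muscle actin, by 0.02 (adjusted p = 0.948). *Myh11*, smooth muscle myosin, stood at 9.73 in replicate 1 on WD and at 5.02 to 5.77 in all other arrays of Pgc1α fl/fl mice. *Cox7a1* was at 14.67 in that replicate. The part of muscle RNA in the *Cox7a1* signal was not tested.

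*Atp5o*, the stalk subunit also called OSCP that joins the catalytic head of ATP synthase to its stator, rose by less. Arrays ran from 16.07 to 16.23 on chow (median 16.13) and from 16.19 to 16.57 on WD (median 16.33), so the groups overlapped. The difference was 0.21 (SE 0.07, 95% confidence interval 0.07 to 0.34), a 1.15-fold rise with an adjusted p of 0.0298 by limma. The second probe of the gene gave 0.19 with an adjusted p of 0.0562. *Atp5d*, the delta subunit of the rotor, missed the threshold at nearly the same size (0.21, adjusted p = 0.0507). The call of *Atp5o* was lost without any 1 of 9 arrays: replicates 1, 3, 4 and 6 on chow, replicates 2, 3, 5 and 6 of Pgc1α fl/fl mice on the diet, and replicate 5 of iPgc1α-/- mice.

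The remaining complexes stayed within a narrow range on WD. In complex II the difference was −0.10 for *Sdha*, the flavoprotein that oxidizes succinate, 0.12 for *Sdhb*, the iron-sulfur subunit, and 0.04 and 0.03 for the membrane anchors *Sdhc* and *Sdhd*, with adjusted p from 0.176 to 0.796. In complex III the range ran from −0.09 for *Uqcr10* to 0.22 for *Uqcrb* (adjusted p = 0.0822), both small subunits, with *Uqcr11* nearest to 0 at 0.01, and *Cyc1*, the heme subunit cytochrome c1, differed by 0.06. *Cycs*, the soluble carrier between complexes III and IV, had the lowest difference of all 45 genes, −0.14 (SE 0.12, adjusted p = 0.452). *Atp5b*, the catalytic beta subunit of ATP synthase, differed by 0.10 (adjusted p = 0.371). The 3 genes that encode the same membrane ring subunit c of ATP synthase gave −0.09 for *Atp5g1*, 0.00 for *Atp5g2* and 0.15 for *Atp5g3*, none past the test.

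**Figure D2:**
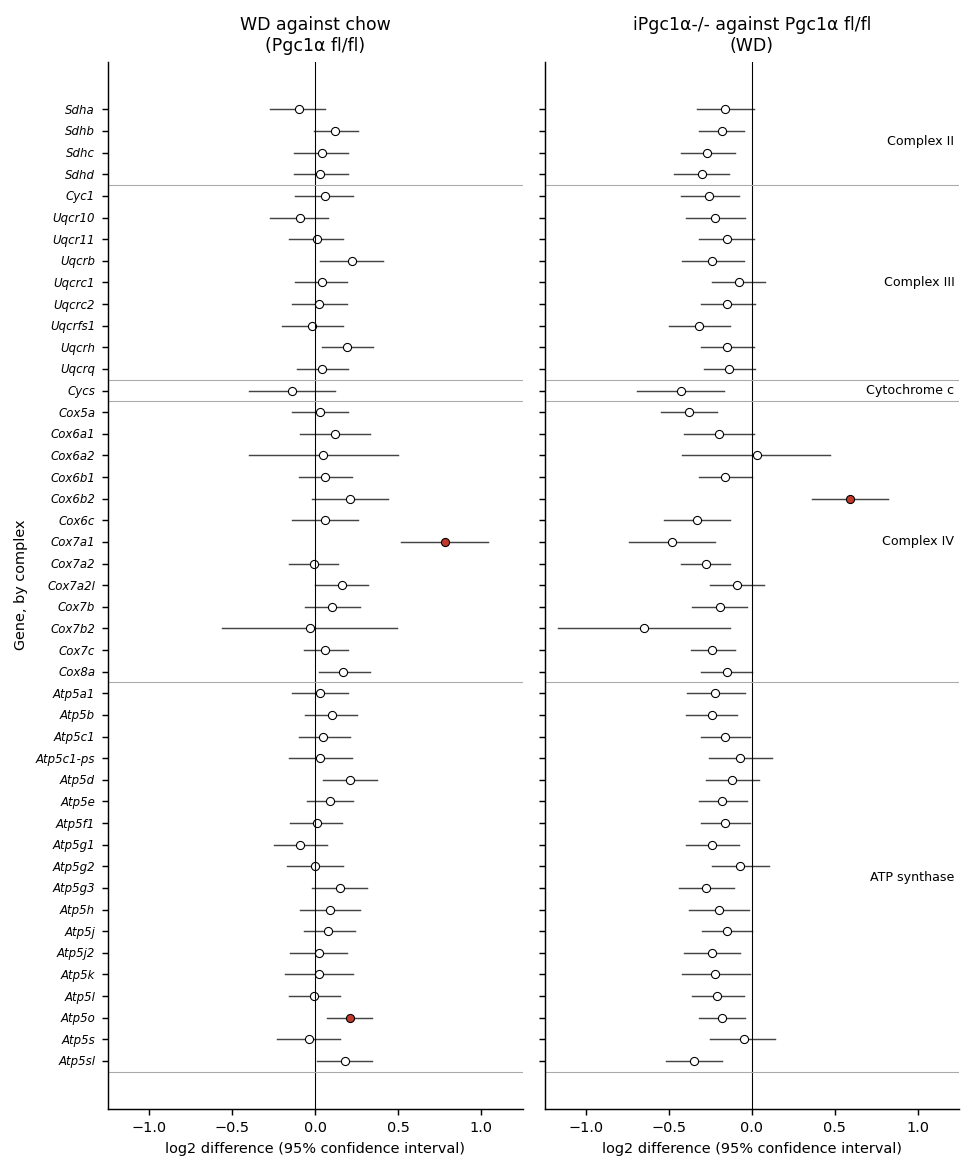
Log2 difference (horizontal axis) of each of the 45 genes with its 95% confidence interval, for the 2 diets among Pgc1α fl/fl mice and for the 2 genotypes on WD; filled red points have an adjusted p of 0.05 or lower. For diet most intervals cross 0, with *Cox7a1* at 0.78, and for genotype 43 of the 45 points lie below 0, with *Cox6b2* at 0.59.

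Marker signals of several cell types moved with diet. All 6 T cell markers fell on WD (median log2 difference −1.68), as did all 6 B and plasma cell markers (−1.97) and all 6 goblet cell markers (−0.73). Of 10 enterocyte markers 2 rose and 1 fell, and 4 of 8 crypt and proliferation markers fell. Among 5 Paneth, 7 enteroendocrine, 3 tuft and 4 myeloid markers 1 of each list fell, and of 2 endothelium markers 0 were called. Over all genes 10.4% rose and 14.2% fell. Summed T cell signal was 13.58 to 15.45 on chow and 12.23 to 13.15 on WD, and summed enterocyte signal 19.53 to 19.87 and 19.70 to 19.97. The part of these shifts in the differences by diet was not tested. In bulk RNA, fewer cells of a type and less RNA per cell cannot be told apart.

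The second comparison asked how the same genes stood in iPgc1α-/- mice when diet was held at WD. Here 43 of the 45 genes had a lower mean under the label iPgc1α-/-, and the median log2 difference was −0.20, where 48.1% of all genes lay below 0 and the median over all genes was 0.01. These differences were small, and 0 of the 45 passed the adjusted test as lower, beside 0.162% of all genes. At an unadjusted p under 0.05, 28 of the 45 were lower, beside 4.92% of all genes. For 9 genes the 6 arrays labelled iPgc1α-/- all lay below the 6 of Pgc1α fl/fl mice, which was so for 0.645% of all genes. Only *Cox6b2* passed the test as higher, beside 0.065% of all genes, and it passed a fold change of 1.5, which 0.135% of all genes did in either direction. The exceptions to the lower means were *Cox6b2* and *Cox6a2*, the latter with a difference that changed sign between settings. The 95% confidence interval lay within a 1.5-fold change for 41 of the 45, beside 19526 of all 21542 genes. Those of *Cox6b2*, *Cox7a1*, *Cox7b2* and *Cycs* did not.

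**Figure D3:**
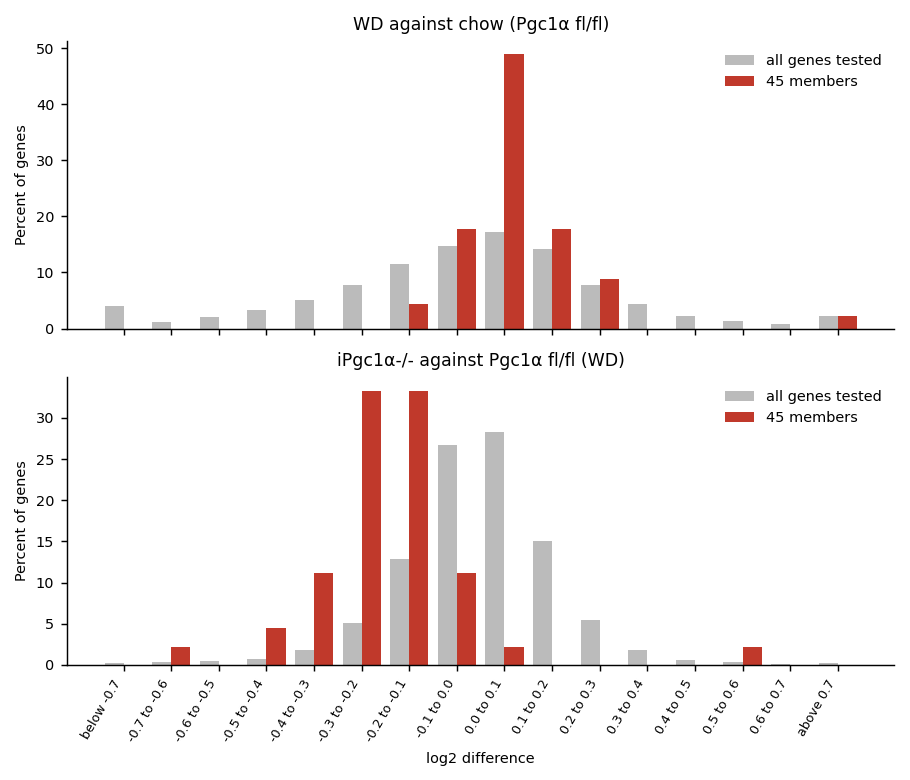
Percent of genes (vertical axis) per 0.1-wide bin of the log2 difference (horizontal axis), for the 45 genes and for all 21542 genes, by diet and by genotype. For genotype 33.3% of the 45 genes lie between −0.3 and −0.2 and 33.3% between −0.2 and −0.1, where 5.03% and 12.8% of all genes lie.

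All complexes had lower medians. In complex II, 4 of 4 genes lay below 0 (median −0.23), in complex III 9 of 9 (−0.15), in complex IV 11 of 13 (−0.20) and among the ATP synthase names 18 of 18 (−0.19). Leaving out the pseudogene and both genes whose products are not subunits left 40 of 42 below 0. Within slides, 41, 39 and 43 of the 45 lay below 0, with medians of −0.13, −0.16 and −0.32. The genotype and diet comparisons share the 6 arrays of WD-fed Pgc1α fl/fl mice, so values high in those arrays raise the one difference and lower the other.

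*Cox5a*, the complex IV subunit that binds the regulatory thyroid hormone T2, was the member closest to a call as lower. Its arrays ran from 15.06 to 15.39 in WD-fed Pgc1α fl/fl mice (median 15.15) and from 14.58 to 15.03 in those labelled iPgc1α-/- (median 14.77), without overlap. The difference was −0.38 (SE 0.08) with an adjusted p of 0.077 by limma. On chow, arrays of Pgc1α fl/fl mice ran from 15.03 to 15.23, near those on WD.

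*Cox7a1* stood between the other groups in iPgc1α-/- mice. Its arrays there ran from 14.30 to 14.51 (median 14.40), all below those of WD-fed Pgc1α fl/fl mice, and 4 of the 6 lay above the highest array on chow, 14.35. The difference from WD-fed Pgc1α fl/fl mice was −0.48 (SE 0.12, 95% confidence interval −0.74 to −0.22, adjusted p = 0.178 by limma) and that from chow-fed Pgc1α fl/fl mice 0.30 (adjusted p = 0.0654). Within slides the genotype difference was −0.52, −0.35 and −0.57. For *Cox7a2* the arrays labelled iPgc1α-/- ran from 14.53 to 14.82, below all 12 arrays of Pgc1α fl/fl mice, with a difference by genotype of −0.28 (SE 0.07, adjusted p = 0.196). *Cox7a2l* differed by −0.09.

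*Cox6b2* was the single gene of the 45 that rose with genotype. Its arrays ran from 8.37 to 8.91 in chow-fed Pgc1α fl/fl mice (median 8.66), from 8.71 to 9.19 on WD (median 8.82) and from 9.24 to 9.81 in those labelled iPgc1α-/- on WD (median 9.42). The last group lay above both others, and the chow and WD groups of Pgc1α fl/fl mice overlapped. The difference by genotype was 0.59 (SE 0.11, 95% confidence interval 0.36 to 0.82, 1.50-fold, adjusted p = 0.0237 by limma), and by diet 0.21 (adjusted p = 0.171). Within slides it was 0.50, 0.61 and 0.65. The call was lost without any 1 of 5 arrays of WD-fed Pgc1α fl/fl mice (replicates 1, 2, 3, 4 and 6) or of replicates 2 and 6 of iPgc1α-/- mice. Its partner *Cox6b1*, which bridges the 2 monomers of the complex IV dimer, ran from 11.96 to 12.24 in WD-fed Pgc1α fl/fl mice and from 11.74 to 12.13 in those labelled iPgc1α-/-, a difference of −0.16 (adjusted p = 0.525). In the other pair of complex IV isoforms, *Cox6a1* differed by −0.20 and the muscle isoform *Cox6a2* by 0.03, with a wide spread of *Cox6a2* on chow (6.19 to 7.74).

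*Cycs* was lower by 0.43 in the arrays labelled iPgc1α-/- (SE 0.12, adjusted p = 0.263), with arrays from 13.76 to 14.15 against 14.13 to 14.81, a narrow overlap. Its second probe gave −0.46. In complex II the differences were −0.16 for *Sdha*, −0.18 for *Sdhb*, −0.27 for *Sdhc* and −0.30 for *Sdhd*. *Sdhc* arrays ran from 11.91 to 12.32 against 12.41 to 12.64 and did not overlap, while *Sdhd* arrays, from 13.34 to 13.71 against 13.68 to 13.92, overlapped. *Uqcrfs1*, the Rieske iron-sulfur protein, had the largest difference of complex III, −0.32 (adjusted p = 0.232), and *Cyc1* differed by −0.26 without overlap, from 14.59 to 14.99 against 15.01 to 15.25. *Atp5b* differed by −0.24 (adjusted p = 0.301), *Atp5g1* by −0.24, *Atp5g2* by −0.07 and *Atp5g3* by −0.28.

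**Figure D4:**
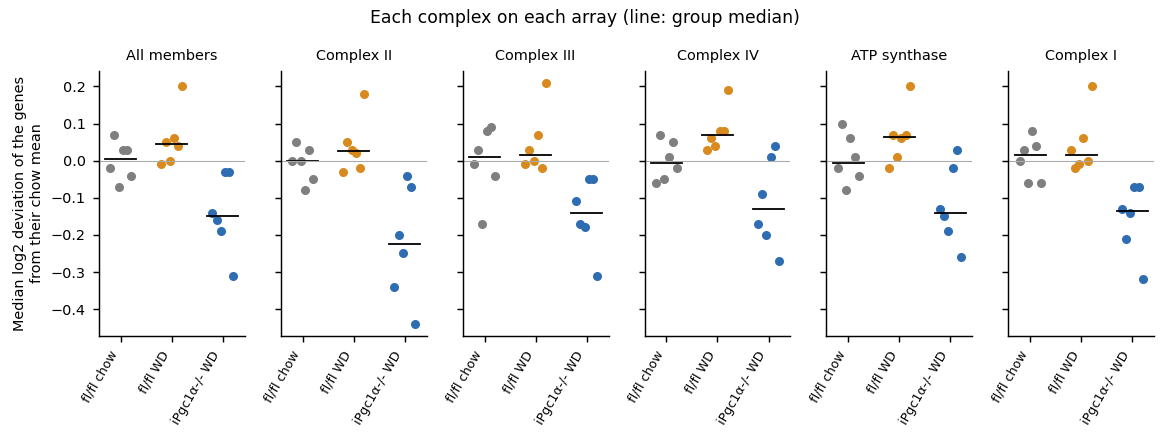
Median over the genes of each list of the log2 deviation from the mean of the chow group (vertical axis), 1 point per array, for all 45 genes, each complex, ATP synthase and, for comparison, complex I. Over the 45 genes the arrays of Pgc1α fl/fl mice sit between −0.07 and 0.07 on chow and −0.01 and 0.20 on WD, and the arrays labelled iPgc1α-/- between −0.31 and −0.03.

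Single arrays stood high or low over many of the genes. Replicate 6 of WD-fed Pgc1α fl/fl mice was the highest of its group in 33 of the 45 genes, and replicate 6 of iPgc1α-/- mice the lowest of its group in 30. Replicates 4 and 5 of iPgc1α-/- mice were the highest of their group in 14 and 20 genes. Without both arrays numbered 6, 17 genes in place of 28 were lower at an unadjusted p under 0.05, and *Cox6b2* had an adjusted p of 0.144 by limma.

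None of the cell type markers passed the test for genotype, but several lists leaned one way. All 6 T cell markers lay above 0 (median 0.23), as did all 6 B and plasma cell markers (0.34) and 5 of 6 goblet cell markers (0.14). All 3 tuft cell markers lay below 0 (−0.45), as did all 5 Paneth cell markers (−0.04). Above 0 lay 7 of 10 enterocyte markers (0.11), 2 of 2 of endothelium and 2 of 4 myeloid. Below 0 lay 5 of 8 crypt and proliferation, 5 of 7 enteroendocrine and 4 of 5 stroma and muscle markers. Of all genes 48.1% lay below 0. Summed T cell signal was 12.23 to 13.15 in WD-fed Pgc1α fl/fl mice and 12.67 to 13.43 in iPgc1α-/- mice, and summed enterocyte signal 19.70 to 19.97 and 19.83 to 20.10. The part of these shifts in the differences by genotype was not tested.

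**Figure D5:**
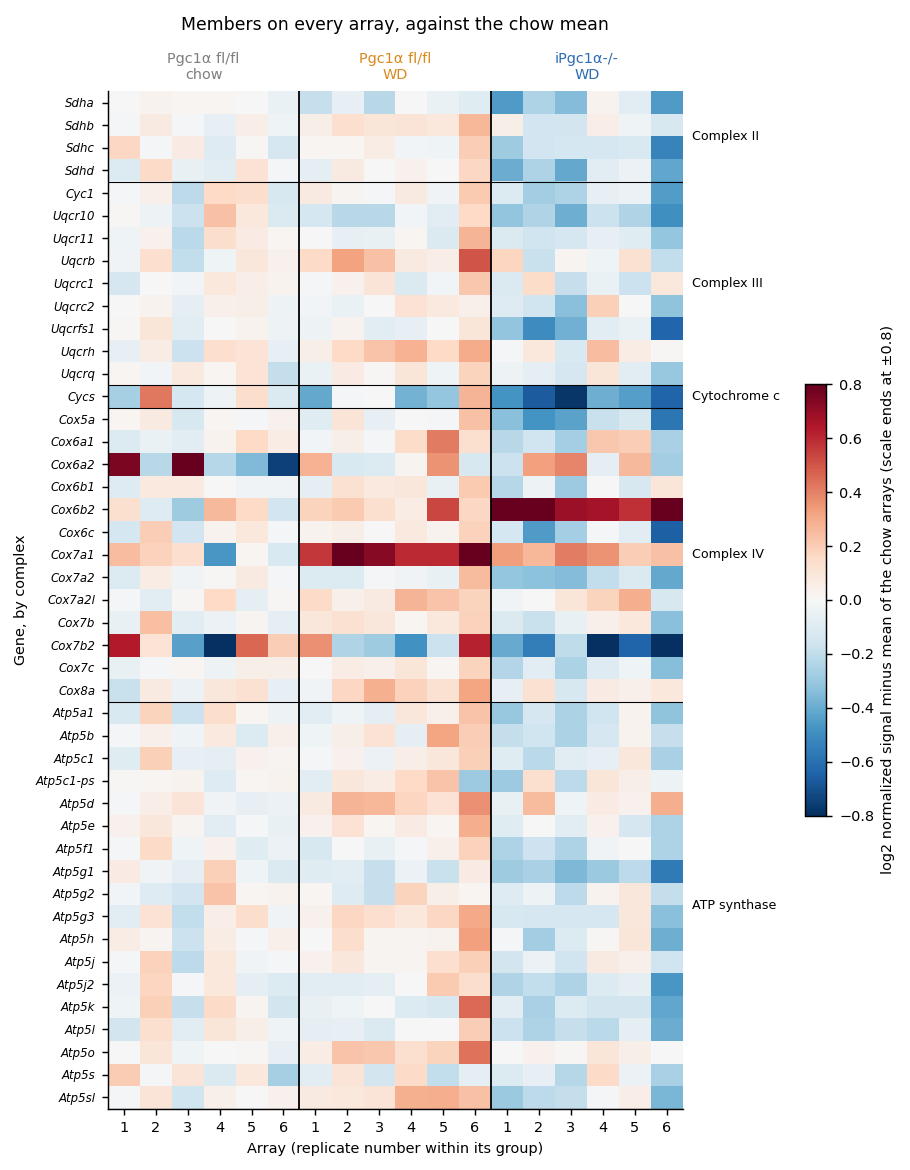
Heat map of the 45 genes (rows, by complex) in the 18 arrays (columns, by group), coloured by the log2 deviation from the mean of the chow group on a scale from −0.8 to 0.8. Most rows are below 0 in the arrays labelled iPgc1α-/-, and replicate 6 of WD-fed Pgc1α fl/fl mice is the highest of its group in 33 of 45 rows.

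In the third comparison, iPgc1α-/- mice on WD against chow-fed Pgc1α fl/fl mice, diet and genotype differ together, and it shares arrays with both others. Here 14 of the 45 genes were lower and 1 was higher, beside 20% and 16.8% of all genes, and the median difference was −0.12 beside −0.01. The 14 were *Sdha*, *Sdhc* and *Sdhd* of complex II, *Uqcr10* and *Uqcrfs1* of complex III, *Cycs*, 5 of complex IV (*Cox5a*, *Cox6c*, *Cox7a2*, *Cox7b2* and *Cox7c*) and 3 of ATP synthase (*Atp5g1*, *Atp5j2* and *Atp5l*). Without replicate 6 of iPgc1α-/- mice 8 genes were lower, and without replicate 2 of the chow group 9. The median was −0.08 without replicate 6 of iPgc1α-/- mice and −0.19 without their replicate 5. *Cycs* fell by 0.57 (1.48-fold, adjusted p = 0.00161 by limma), from 14.27 to 14.96 on chow to 13.76 to 14.15. Arrays did not overlap for *Cycs*, *Cox7a2* (−0.29, adjusted p = 0.00479) and *Atp5g1* (−0.33, adjusted p = 0.00235). That is 3 of the 45 genes wholly below the chow arrays, beside 1861 of all 21542 genes. *Cox7b2*, a gene with low signal and a wide spread, fell by 0.68 (adjusted p = 0.0403), and *Cox5a* by 0.35 (adjusted p = 0.00292). The gene that rose was *Cox6b2*, by 0.80 (1.74-fold, adjusted p = 1.94e-05).

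Where a gene had several probes the brightest was used, and the other 26 probes of these genes were set beside it. None of the 26 passed the test for diet, where 10.4% of all genes rose and 14.2% fell. None passed for genotype, where the shares were 0.065% and 0.162%. In the third comparison 8 were lower, beside 20% of all genes. These shares count 1 probe per gene, and the 26 probes read the same arrays as the brightest ones.

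The subunits of complex I gave similar medians. Of 36 measured subunits, 36 lay below 0 for genotype (median −0.19), beside 48.1% of all genes, and 20 were lower at an unadjusted p under 0.05, beside 4.92%. *Ndufc2* fell (−0.34, adjusted p = 0.0488). For diet their median was 0.05, and 2 rose, *Ndufb3* by 0.27 and *Ndufb4* by 0.40. Of 77 mitochondrial ribosomal proteins, 19 fell and 3 rose with diet (median −0.15), beside 14.2% and 10.4% of all genes, and for genotype 0 were called (median −0.09). Cytosolic ribosomal proteins, 81 in number, had a median of −0.15 for diet, with 7 lower, and of −0.02 for genotype, with 1 lower. Differences between these lists were not tested.

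Subunits encoded by mitochondrial DNA were measured for 4 genes, ATP8, COX1, COX2 and CYTB. They differed by −0.10, 0.09, −0.02 and 0.00 between the genotypes and by a median of 0.11 with diet, and 0 were called. Their median for genotype was −0.01, beside −0.20 for the 45 nuclear-encoded genes, and the difference between these medians was not tested. Among 3 further nuclear genes of complex IV, 0 were called, and *Cox4i1*, the widely expressed isoform of subunit 4, differed by 0.19 with diet (adjusted p = 0.0591).

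Assembly factors of complex IV insert copper and heme or stabilize intermediates. With diet 5 of 25 rose and 3 fell, beside 10.4% and 14.2% of all genes, so the share that fell was near that of all genes. *Sco2*, a copper chaperone for subunit COX2, ran from 10.94 to 11.85 on chow, 11.92 to 12.27 on WD and 12.69 to 13.37 in those labelled iPgc1α-/- on WD, 3 groups without overlap. It rose by 0.70 with diet (adjusted p = 0.0013) and by 0.95 with genotype (SE 0.14, 1.93-fold, adjusted p = 0.00291). *Cox11*, a copper chaperone for subunit COX1, rose by 0.24 with diet (adjusted p = 0.0466) and fell by 0.42 with genotype (adjusted p = 0.045), with arrays of WD-fed Pgc1α fl/fl mice from 10.14 to 10.62 and those labelled iPgc1α-/- from 9.88 to 10.06. Its call for genotype held in 4 of the 18 settings that left out 1 array. *Cox19* rose by 0.40 and *Cox16* by 0.37 with diet, whereas *Cox18* fell by 0.57 (adjusted p = 0.0186).

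Factors of the other complexes were few, and their counts by diet stand beside 10.4% higher and 14.2% lower of all genes. Of 7 further ATP synthase genes, 2 rose on WD, among them *Atpaf2*, which assembles the catalytic head, by 0.54 (adjusted p = 7.96e-05), and *Tmem70*, which assembles the membrane ring, fell by 0.32 (adjusted p = 0.0124). Of 4 complex II factors *Sdhaf1*, which inserts iron-sulfur clusters into the SDHB protein, fell by 0.51 on WD (adjusted p = 0.00325). Of 6 complex III factors 0 were called. None of these 3 lists held a call for genotype, where 0.065% of all genes were called higher and 0.162% lower.

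Regulators of mitochondrial biogenesis differed by member. With diet 2 of 16 rose and 3 fell, shares near the 10.4% and 14.2% of all genes. *Ppara*, the receptor for fatty acids, was up by 1.63 (adjusted p = 7.81e-09) and *Ppargc1b*, the relative of *Ppargc1a*, down by 0.54 (adjusted p = 0.0079). The brighter probe of *Ppargc1a* was 0.44 higher with diet (adjusted p = 0.0556 by limma). It was 0.74 higher in the third comparison (adjusted p = 0.00162 by limma). *Esrra*, which encodes ERRα, ran from 14.05 to 14.42 on chow, 14.43 to 14.75 on WD and 14.03 to 14.30 in those labelled iPgc1α-/- on WD. The WD arrays of Pgc1α fl/fl mice lay above both other groups. *Esrra* rose by 0.34 with diet (adjusted p = 0.00564) and fell by 0.40 with genotype (SE 0.08, adjusted p = 0.0488), a call that held in 3 of the 18 settings that left out 1 array.

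Promoters of the 45 genes were read from RefSeq (GRCm38.p6), each as 300 bases from 250 before to 50 after the start. The table held promoters of 36 of them. Motifs were searched on both strands by exact letters. The NRF1 core GCATGCGC stood in 8 of the 36 genes (22.2%), beside 3.05% of all 27025 genes with a promoter. Those 27025 include genes not measured on the arrays, so the shares beside the 36 are not those of measured genes alone. The ETS motif CCGGAAG, bound by GABPA, stood in 12 (33.3% beside 9.93%), and the YY1 motif AAGATGGC in 4 (11.1% beside 3.19%). The ERR motif TCAAGGTCA stood in 2, *Atp5g3* and *Sdhd* (5.56% beside 0.466%), its core AAGGTCA, which the longer motif contains, in 5 (13.9% beside 5.38%), and the Sp1 motif GGGGCGGGG in 7 (19.4% beside 12.9%). A match describes the letters of the window and is no evidence of binding.

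The promoters of 4 genes are shown. *Cycs* and *Sdhd* are among the genes lower in the third comparison, and *Cox7a1* and *Cox6b2* were called with diet and with genotype. Other genes lower there held none of the motifs: *Sdha*, *Uqcr10*, *Uqcrfs1*, *Cox5a*, *Cox7a2*, *Cox7b2*, *Cox7c* and *Atp5g1*. *Atp5j2* and *Atp5l* held motifs, and *Sdhc* and *Cox6c* had no promoter to search. Capitals mark motif matches.
Cycs, chr6:50566520-50566819 (minus strand): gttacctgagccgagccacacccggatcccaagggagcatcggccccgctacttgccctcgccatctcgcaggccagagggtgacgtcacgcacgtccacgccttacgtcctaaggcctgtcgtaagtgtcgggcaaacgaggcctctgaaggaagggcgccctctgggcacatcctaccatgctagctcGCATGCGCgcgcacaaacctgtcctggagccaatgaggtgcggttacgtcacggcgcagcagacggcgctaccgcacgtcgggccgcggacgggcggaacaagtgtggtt
Sdhd, chr9:50603800-50604099 (minus strand): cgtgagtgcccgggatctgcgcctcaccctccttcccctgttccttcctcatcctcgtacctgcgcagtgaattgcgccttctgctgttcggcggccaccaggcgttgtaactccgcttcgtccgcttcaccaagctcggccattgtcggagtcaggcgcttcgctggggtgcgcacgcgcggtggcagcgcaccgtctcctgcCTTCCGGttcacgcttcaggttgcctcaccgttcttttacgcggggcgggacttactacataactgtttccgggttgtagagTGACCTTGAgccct
Cox7a1, chr7:30183921-30184220 (plus strand): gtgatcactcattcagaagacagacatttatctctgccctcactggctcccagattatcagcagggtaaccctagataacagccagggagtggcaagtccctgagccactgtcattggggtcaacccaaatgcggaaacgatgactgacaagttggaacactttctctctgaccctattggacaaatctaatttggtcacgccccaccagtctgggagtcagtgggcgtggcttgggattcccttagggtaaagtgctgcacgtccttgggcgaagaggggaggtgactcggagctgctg
Cox6b2, chr7:4753045-4753344 (minus strand): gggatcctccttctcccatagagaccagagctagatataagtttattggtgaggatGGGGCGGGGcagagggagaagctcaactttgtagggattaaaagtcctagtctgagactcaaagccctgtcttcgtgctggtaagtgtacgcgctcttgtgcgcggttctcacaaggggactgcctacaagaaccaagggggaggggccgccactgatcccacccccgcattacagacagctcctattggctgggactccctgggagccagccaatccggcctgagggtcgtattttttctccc
The *Cycs* window held the NRF1 core on the printed strand. That of *Sdhd* held the ERR motif and the ETS motif, both on the opposite strand, and those of *Cox7a1* and *Cox6b2* held no motif and 1 Sp1 motif.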

How the data were processed

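Cy3-labelled cRNA of ileum cells from 18 mice was hybridized to Agilent SurePrint G3 Mouse GE v2 arrays. The authors deposited the spot intensity values of Agilent Feature Extraction 10.10.1.1, not normalized between arrays, and a table of log2 values for 33095 probes, which they had filtered, corrected for washing bath and labelling serial and normalized with qsmooth. That batch correction was not repeated, since the labels do not name the batches. Groups and replicate numbers came from the labels, and each mouse counted as 1 replicate.

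From the scanner files, control and outlier spots were left out and spots of a probe averaged, which left 56605 probes. Probes entered the test if well above background on 5 or more arrays of any group (32726 probes). Median signals on the log2 scale went through a qsmooth procedure rewritten for this purpose (window 0.05, R 4.3.3 with the data.table package in version 1.17.8). One limma 3.58.1 model (lmFit, eBayes) of the 3 groups gave all contrasts, with Benjamini-Hochberg adjustment over the 32726 probes. A gene is represented by its brightest probe, and was called at an adjusted p of 0.05 or lower. Log2 differences near background understate the change. A signal is not compared between probes of different genes. The scripts were tested on simulated arrays.

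The genes and gene lists were chosen with earlier results of these data known, so no test was run over a list. Genes given with values are the *Sdh* genes, *Cyc1*, *Cycs*, *Atp5b*, isoform pairs, called genes, and the genes of largest and smallest difference by diet in each complex. From the other lists they are the genes called for genotype and up to 3 called for diet. *Cox5a*, *Uqcrfs1*, *Uqcr10*, *Atp5d*, *Cox4i1*, *Ndufb3* and *Ndufb4* and the genes of the third comparison were added after their values were seen. So were the values of *Ppargc1a* by diet and in the third comparison. Alternatives were other background corrections and normalizations, the authors' log2 values, other filters, slide and replicate number as blocks, other variance models, thresholds and probe rules, and each array left out. The counts below 0, at an unadjusted p and without both arrays numbered 6 on WD, and the within-slide values, were chosen after seeing the data. The number of arrays and the signal over background limit the precision: the median SE of a log2 difference over the 45 genes was 0.08.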

Additional observations from a re-analysis of the deposited data

Results flagged for a closer look

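Among 93 groups of 6 arrays (31 genes with values in 3 groups each), 3 held an array whose distance to its nearest neighbour, as a share of the range of the group, exceeded Dixon's critical value at 95%, and chance flags about 1 in 20 groups. All were in Pgc1α fl/fl mice on WD. *Cox6b2* stood at 9.19 in replicate 5, with the next array at 8.86 (ratio 0.694). In replicate 6, *Cox7a2* stood at 15.19 (next 14.92, ratio 0.753) and *Uqcr11*, a small complex III subunit, at 15.36 (next 15.10, ratio 0.645). The part of these arrays in the differences was not tested beyond leaving each out.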

How the results depend on the processing

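Of 165 single-gene differences, 34 were called and 0 of these changed sign under an alternative. Of the 131 not called, 23 did, all of at most 0.08 in size, among them *Cox6a2* by genotype (0.03, −0.03) and *Cox7a2* by diet (−0.01, 0.10). The number of the 45 genes that rose with diet was 2, and became 4 with median signals set to a common 75th percentile, with the trended and robust variance and with the mean of a gene's probes, 7 with the background-subtracted signal so scaled and with normexp, and 1 with a fold change above 1.5, at an adjusted p of 0.01 or without both arrays numbered 6; it ranged from 1 to 3 with 1 array left out. *Cox7a1* was called in every setting (0.68 to 0.85). For genotype the 1 gene that rose, *Cox6b2*, became 0 with the background-subtracted scaling, at an adjusted p of 0.01 and without both arrays numbered 6 (0 to 1 with 1 array left out), and the 0 that fell became 1 with either scaling to the 75th percentile, 2 with normexp and 1 with the trended variance (0 to 2 with 1 array left out, 2 without replicate 5 of iPgc1α-/- mice). *Cox5a* was among those gained in these 4 settings, with 0.0221 as its lowest adjusted p. Whether replicate numbers pair the mice was not settled: correlations of same-numbered arrays ran from −0.22 to 0.35. The best match was the same number for 3 of 6 arrays for diet, 2 for genotype and 1 in the third comparison. With the replicate block 4 genes rose with diet and 0 with genotype. In the third comparison the 1 gene higher became 2 with only the 2 groups fitted and without both arrays numbered 6 (1 to 2 with 1 array left out), and the 14 lower became 1 with a fold change above 1.5, 6 at an adjusted p of 0.01 and 7 without both arrays numbered 6 (8 to 20 with 1 array left out). Genes below 0 for genotype numbered 43 to 44 in every setting, and those lower at an unadjusted p under 0.05 fell from 28 to 17 without both arrays numbered 6 (21 to 35 with 1 array left out). With the background-subtracted scaling the median by diet was 0.13 over all 45 genes, 0.12 for complex III, 0.16 for complex IV and 0.15 for ATP synthase. With the median signal scaled it was 0.15 for complex IV and 0.12 for ATP synthase, and either scaling put the genotype median of complex III at −0.25. With 1 array left out the diet median ran from 0.03 (without replicate 6 of Pgc1α fl/fl mice on WD, chow replicate 3 or replicate 5 of iPgc1α-/- mice) to 0.07. The cause was not tested. *Atp5o* lost its call in both scalings, with 2 groups fitted and without any 1 of 9 arrays, and *Cox11* and *Esrra* lost theirs for genotype without 14 and 15 of the 18 arrays.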
